A study of Mus musculus with 6 samples.

Results

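Membrane trafficking genes whose exons were used differently in cells named as lacking the splicing repressor Ptbp1 were examined in a mouse aortic cell line. The 10 genes were Dennd1a, Trip10, Smap1, Scarb1, Osbpl9, Atp6v1h, Myof, Ktn1, Ganab and Rtn4, of 9420 genes with a measured splicing node. A node is a stretch of a gene between neighbouring splice sites, and its psi is the fraction of reads on paths that include it. The genes had 196 nodes with at least 20 reads in all 6 libraries, of 202 in the files and of 85940 such nodes over all genes. Of the 196 nodes, 180 were cassette exon parts, 9 alternative acceptors and 7 alternative donors. The genes were selected on psi, for an exon that differed between the libraries named KO and the others, so those differences are described here and not tested.

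Membrane proteins and lipids move between the endoplasmic reticulum, the Golgi, endosomes and the cell surface in vesicles. Coats and curved scaffold proteins shape these vesicles, small GTPases of the Rab and Arf families direct them, and their activators and inhibitors set when each GTPase is on. Ptbp1 binds pyrimidine-rich RNA, mostly in introns, and represses many exons, while it favours the inclusion of others. Endothelial cells take up lipoproteins and recycle surface receptors through these routes.

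Each of the 6 libraries stood for 1 group, with no replicates. The files named 3 lines. KO was the aortic line after CRISPR disruption of Ptbp1, derived from 1 cell, Rescue was that clone carrying a human PTBP1 cDNA, and basal is taken here as the parental line. Each line had a library with TNF (30 ng/mL per the labels), an inflammatory cytokine, and one without. All of them share the TetOn-SV40 immortalisation, with doxycycline taken away before plating. Since KO and Rescue descend from a single clone, a difference from the basal line can also belong to that clone, and these cannot be told apart there.

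File names and sample labels disagreed for 4 of 6 libraries, and the groups here follow the file names. The library named basal with TNF is labelled KO, the one named KO is labelled Rescue, the one named KO with TNF is labelled WT with TNF, and the one named Rescue is labelled KO with TNF. Libraries held between 19598773 and 21626838 estimated reads on genes and between 14729518 and 16886361 reads across splice junctions. Ptbp1 mRNA was at 424 and 387 CPM (counts scaled to the library size) in KO with and without TNF, 186 and 173 in Rescue, and 423 and 338 in basal, so its level did not mark the KO libraries. Ptbp2, the paralogue that Ptbp1 keeps low through splicing, was at 192 and 218 CPM in KO, 76.5 and 67.6 in Rescue, and 37.8 and 38.2 in basal. The cells are labelled endothelial. Of 10 endothelial markers, Eng was at 147.3 to 199.88 TPM (the deposited level, scaled to length and library size). The others, Pecam1, Cdh5 and Kdr among them, were under 1 TPM in every library, except Erg at 1.05 in basal without TNF. Smooth muscle and fibroblast markers summed to 4483 and 6983 TPM in KO with and without TNF, 3643 and 8119 in Rescue, and 4417 and 8599 in basal. Col1a1 made up most of each sum, at 2821.62 and 4553.92 TPM in KO, 2569.14 and 5843.37 in Rescue, and 3010.44 and 6220.1 in basal. Of the smooth muscle markers, Acta2 was at 708.67 to 1560.56 TPM, but Myh11 was at 0.04 to 0.3. Thy1 and Pdgfra were higher in both basal libraries than in the other 4, and Cnn1 was lowest in both Rescue libraries. Thy1 was at 0.12 and 0.24 TPM in KO, 0.12 and 0.23 in Rescue, and 41.5 and 77.23 in basal, and Pdgfra at 18.26 and 18.46 in KO, 21.12 and 20.33 in Rescue, and 109.84 and 136.25 in basal. Cnn1 was at 13.37 and 21.64 TPM in KO, 0.1 and 0.64 in Rescue, and 12.73 and 34.64 in basal. The part of these markers in the results was not tested.

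The exons of Dennd1a, Smap1 and Rtn4 are shown because they were higher in KO and hold runs of C and T. Those of Trip10, also higher, and Scarb1, lower, are shown for contrast. The Trip10 exon holds runs of C and T as well, but neither of the motifs marked below. They come from GENCODE vM21 transcripts on GRCm38, on the strand of the gene, and capitals mark TCTT and CTCT, the motifs searched, which may overlap. The Dennd1a exon lies at chr2:37805072-37805200 (minus strand), the Smap1 exon at chr1:23871438-23871518 (minus) and the Rtn4 exon at chr11:29705535-29705591 (plus). The Trip10 exon lies at chr17:57256860-57257027 (plus) and the Scarb1 exon at chr5:125281105-125281233 (minus).
Dennd1a: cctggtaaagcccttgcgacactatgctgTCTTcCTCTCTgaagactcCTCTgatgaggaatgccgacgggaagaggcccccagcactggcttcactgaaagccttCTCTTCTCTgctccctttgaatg
Smap1: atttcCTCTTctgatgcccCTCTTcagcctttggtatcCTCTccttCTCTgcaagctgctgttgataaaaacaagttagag
Rtn4: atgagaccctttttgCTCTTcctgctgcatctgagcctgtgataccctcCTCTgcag
Trip10: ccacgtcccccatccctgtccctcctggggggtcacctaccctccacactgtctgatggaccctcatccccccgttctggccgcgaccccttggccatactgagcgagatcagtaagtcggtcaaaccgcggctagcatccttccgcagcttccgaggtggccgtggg
Scarb1: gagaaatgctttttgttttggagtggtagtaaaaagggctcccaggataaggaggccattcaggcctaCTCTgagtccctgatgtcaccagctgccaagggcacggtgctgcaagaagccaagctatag
The motifs started at 7 places in the Dennd1a exon, 6 in Smap1, 3 in this Rtn4 exon, 1 in Scarb1 and none in Trip10. Among cassette nodes within 10% of the same length, 60.9% held at least 1 for Dennd1a and Scarb1, 44.7% for Smap1, 33.6% for Rtn4 and 69.3% for Trip10. Pyrimidines made up 58.1% of the Dennd1a exon, 64.2% of Smap1, 66.7% of Rtn4 and 60.1% of Trip10, against 44.2% of Scarb1, and the median over 30- to 200-nt cassette nodes was 46.8%. Since the exons of Dennd1a, Smap1 and Rtn4 are shown partly for their runs of C and T, these values are a description. Of the exons not shown that were higher in KO, Ganab had 51.5% with 1 motif and the long Rtn4 exon 44.8% with 16. Of those lower in KO, Myof had 53.8%, Atp6v1h 46.3% with 2 motifs, Ktn1 40.5% and Osbpl9 33.3%, and Myof, Ktn1 and Osbpl9 held no motif. A motif match describes these letters only. Introns, where much Ptbp1 binding lies, were not analysed here.

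A node was counted as apart when both KO libraries lay at least 0.1 in psi outside the range of the other 4 libraries, the distance being its gap. Of the 85940 nodes, 284 were apart (0.33%), 173 higher in KO (0.201%) and 111 lower (0.129%). The 10 genes held 10 of these nodes in 9 genes, 6 higher and 4 lower. The choice of genes used this contrast, so nothing is read from that share. The smallest member gap inside the limit was Smap1 with 0.269, and the nearest outside it was Atp6v1h with -0.097, followed by a 69-nt node of Osbpl9 with 0.069. With the labels' groups, 26 nodes were apart and none was a member's. The mean difference of KO from the others turned round for all 11 exons described below. Both libraries named KO then count among the others, so that reversal follows largely from how the exons were chosen. By size of gap, Dennd1a ranked 6 among the 284 nodes, Scarb1 9 and Ktn1 10.

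**Figure D1:**
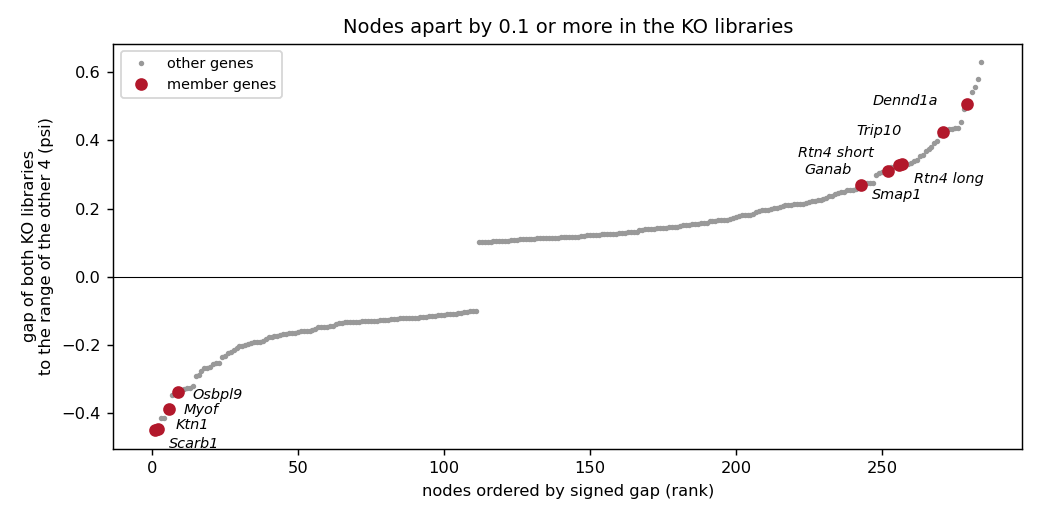
Signed gap in psi (vertical axis) of the 284 nodes apart by 0.1 or more, ordered by gap (horizontal axis, rank); grey points are nodes of other genes and red points the 10 member nodes. Member gaps ran between 0.508 for Dennd1a and -0.451 for Scarb1, away from the limit of 0.1 on both sides.

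Dennd1a, Trip10 and Smap1 act at the cell surface and on endosomes, and each had an exon higher in KO. Dennd1a activates the GTPase Rab35, which sends endocytosed receptors back to the surface. Psi of its 129-nt exon was 0.771 and 0.714 in KO with and without TNF, 0.206 and 0.155 in Rescue, and 0.0571 and 0.0 in basal. The KO libraries were far above all others, and Rescue lay above basal. These values rest on 31 to 72 reads each. Junction reads into the exon numbered 14 of 18 in KO with TNF (share 0.778, exact 95% interval 0.524 to 0.936) and 29 of 41 without TNF (0.707, 0.545 to 0.839). Rescue had 8 of 35 and 5 of 35, and basal had 0 of 33 with TNF and 1 of 33 without. The count of 0, at this edge only, allows a share of up to 0.0909 if 3 counts are taken as its limit (0.106 by the exact interval). At the downstream edge, basal had 2 of 35 with TNF (0.0571, 0.007 to 0.192) and 1 of 33 without, where psi was 0.0. The annotation holds the exon in a single, incomplete coding transcript.

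Trip10 (also known as CIP4) is an F-BAR protein that bends membrane and binds Cdc42 at sites of endocytosis. Its 168-nt exon had a psi of 0.73 and 0.71 in KO with and without TNF, 0.266 and 0.284 in Rescue, and 0.0831 and 0.087 in basal. The 3 lines did not overlap, with Rescue between the others. The reads skipping the exon numbered 60 and 49 in KO, 91 and 78 in Rescue, and 149 and 126 in basal. Reads into its upstream edge numbered 158 and 135 in KO, 40 and 27 in Rescue, and 8 and 6 in basal. The exon lies in the coding sequence, after 54.4% of it.

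Smap1 switches off Arf6, a GTPase of clathrin-dependent uptake of the transferrin receptor. Its 81-nt exon had a psi of 0.35 and 0.367 in KO with and without TNF, 0.0806 and 0.058 in Rescue, and 0.0 in both basal libraries. In basal, 0 of 76 reads with TNF and 0 of 62 without entered the exon, which allows shares of up to 0.0395 and 0.0484 at 3 counts (0.0474 and 0.0578 by the exact interval). In KO 18 of 58 and 32 of 76 reads did so (0.31 and 0.421), and in Rescue 6 of 63 and 5 of 70. The annotation holds this exon only in a transcript with no coding sequence.

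Scarb1 and Osbpl9 handle lipids, and each had an exon lower in KO. Scarb1 encodes the receptor for high-density lipoprotein. Its 129-nt exon ends in the stop codon of the SR-BI form, and skipping it joins the downstream exon, which gives the SR-BII form another cytoplasmic tail. Psi was 0.299 and 0.289 in KO with and without TNF, 0.75 and 0.808 in Rescue, and 0.842 and 0.868 in basal. Most Scarb1 mRNA thus carried the exon in Rescue and basal and most lacked it in KO. Skipping reads numbered 148 and 150 in KO, 61 and 68 in Rescue, and 40 and 37 in basal. By annotation, 91.7% of the SR-BI coding sequence lies before the exon.

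Osbpl9 (ORP9) moves lipids between the endoplasmic reticulum and the Golgi. Its 39-nt coding exon at chr4:109091661-109091699 had a psi of 0.184 and 0.221 in KO with and without TNF, 0.59 and 0.652 in Rescue, and 0.559 and 0.755 in basal. Junction reads gave higher inclusion shares at the upstream edge: 0.615 (exact 95% interval 0.47 to 0.747) and 0.677 (0.547 to 0.791) in KO, 0.973 and 0.929 in Rescue, and 0.888 and 0.946 in basal. Both measures were lower in KO, but their difference between KO and the mean of the other 4 libraries was -0.436 in psi and -0.288 in the upstream junction share. The share counts a single skipping junction. In KO with TNF it rests on 32 upstream, 30 downstream and 20 skipping reads, while psi rests on 196 reads. Reads behind psi are thus left out of the share, and the sizes of the differences are not comparable. A second Osbpl9 exon, 69 nt long, was higher in KO, with a psi of 0.108 and 0.082 in KO, 0.006 and 0.013 in Rescue, and 0.0 and 0.007 in basal.

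Atp6v1h encodes subunit H of the proton pump that acidifies endosomes and lysosomes. Psi of its 54-nt coding exon at chr1:5101070-5101123 was 0.726 and 0.844 in KO with and without TNF, 0.941 and 0.973 in Rescue, and 0.986 and 0.99 in basal. Both KO libraries were the lowest, but the one without TNF lay within 0.1 of Rescue with TNF. Reads that skip the exon were few outside KO, at 38 and 21 in KO, 11 and 4 in Rescue, and 2 and 1 in basal.

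Myof is a ferlin, a calcium-binding membrane protein of vesicle fusion and membrane repair that keeps VEGF receptors at the surface of endothelial cells. Its 39-nt exon at chr19:37969907-37969945 had a psi of 0.322 and 0.357 in KO with and without TNF, 0.744 and 0.787 in Rescue, and 0.829 and 0.79 in basal. Rescue lay just below basal, and KO stood well below both. The gene had 489 to 503 reads behind psi in KO and 336 to 631 in the others. At the upstream edge 119 of 377 reads included the exon in KO with TNF and 117 of 365 without, against 273 of 335 and 211 of 274 in basal.

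Ktn1, Ganab and Rtn4 belong to the endoplasmic reticulum. Ktn1 (kinectin) anchors kinesin motors on this membrane. Its 84-nt coding exon at chr14:47726471-47726554 had a psi of 0.147 and 0.145 in KO with and without TNF, 0.595 and 0.658 in Rescue, and 0.634 and 0.626 in basal. Rescue and basal overlapped and the KO libraries lay apart. A 72-nt Ktn1 exon further upstream was lower in KO to a lesser degree, at 0.358 and 0.368 in KO, 0.445 and 0.471 in Rescue, and 0.405 and 0.56 in basal.

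Ganab is the catalytic subunit of glucosidase II, which trims glucose off N-glycans so that glycoproteins can fold. Its 66-nt exon at chr19:8907851-8907916 had a psi of 0.675 and 0.636 in KO with and without TNF, 0.307 and 0.325 in Rescue, and 0.176 and 0.181 in basal. As with Trip10, the 3 lines did not overlap. Reads into the upstream edge numbered 120 and 109 in KO, 38 and 36 in Rescue, and 22 and 25 in basal, while skipping reads numbered 68 and 69 in KO, 87 and 85 in Rescue, and 131 and 127 in basal.

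Rtn4 (Nogo) bends the tubules of the endoplasmic reticulum. Its 2361-nt exon, at chr11:29706410-29708770, distinguishes the long Nogo-A protein from shorter forms, and the 57-nt exon shown above precedes it. Psi of the long exon was 0.446 and 0.433 in KO with and without TNF, 0.104 and 0.0743 in Rescue, and 0.0746 and 0.0681 in basal. Psi of the 57-nt exon was 0.445 and 0.44 in KO, 0.11 and 0.0811 in Rescue, and 0.0755 and 0.0811 in basal. The exons thus ran at nearly the same psi, and Rescue was close to basal.

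Junction reads of Rtn4 differed between the ends of this pair. Reads leaving the long exon for the shared downstream exon numbered 841 and 530 in KO with and without TNF, 376 and 161 in Rescue, and 377 and 195 in basal, and reads that skip both exons numbered 517 and 346 in KO, 1708 and 894 in Rescue, and 2590 and 1399 in basal. The inclusion share at that end was 0.619 and 0.605 in KO, 0.18 and 0.153 in Rescue, and 0.127 and 0.122 in basal. Where the upstream exon joins the 57-nt exon, it was 0.231 and 0.214 in KO, 0.0792 and 0.0489 in Rescue, and 0.0386 and 0.047 in basal. Both ends were higher in KO than in every other library, but the level differed by more than the exact intervals allow, 0.593 to 0.645 downstream and 0.199 to 0.264 upstream in KO with TNF. RSEM, which estimates transcripts separately, gave a mean Rtn4 transcript length of 5923 and 5950 nt in KO, 4769 and 4656 in Rescue, and 4446 and 4469 in basal.

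**Figure D2:**
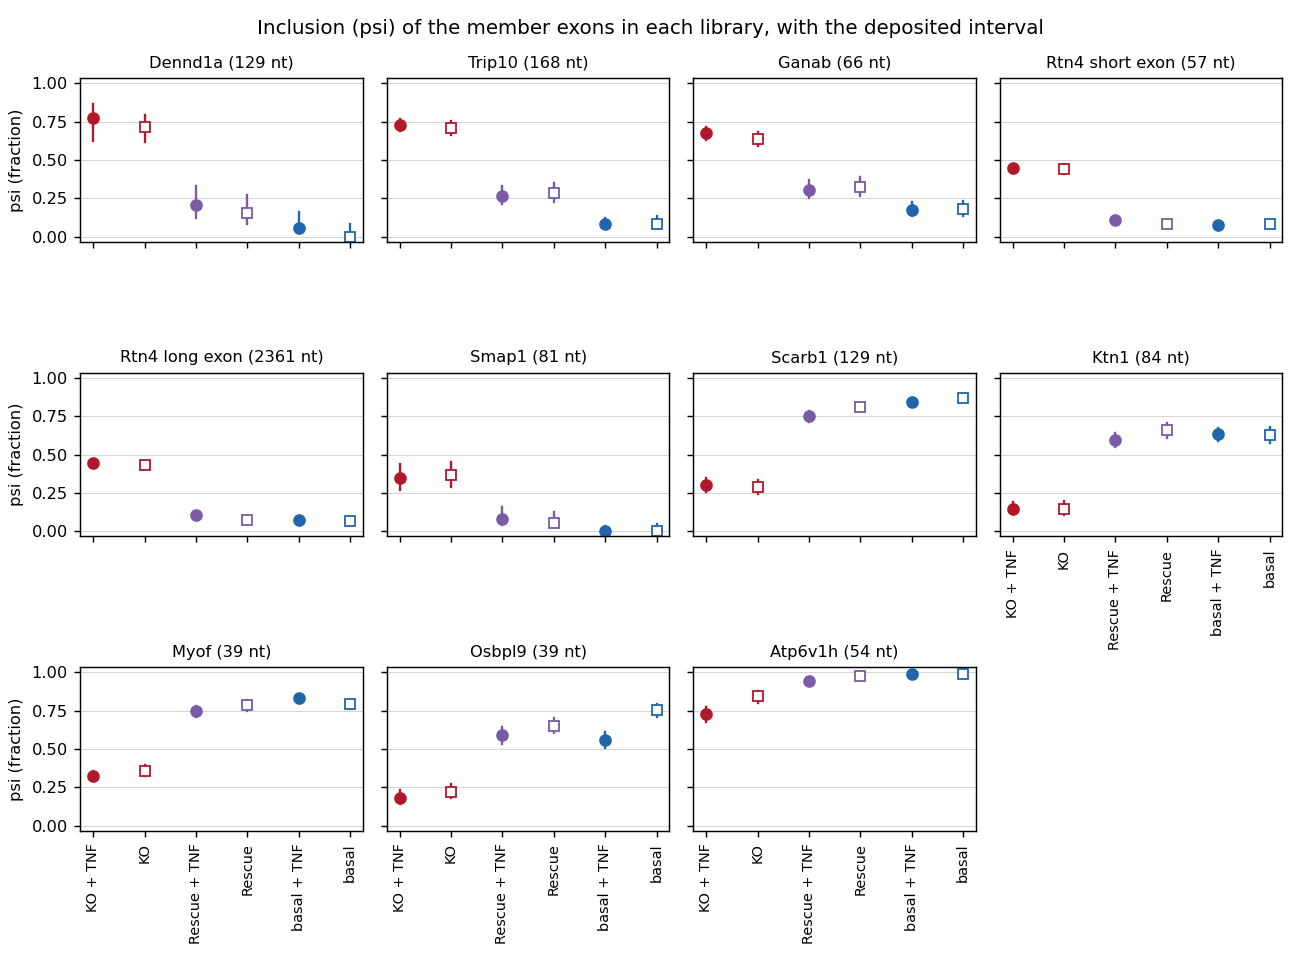
Psi (vertical axis, fraction) of the 11 member exons in each library (horizontal axis), filled circles with TNF and open squares without; bars are the intervals deposited with psi, whose level is not given in the sources used here. KO libraries lay above the others in the first 6 panels and below them in the last 5, with Dennd1a at 0.771 and 0.714 in KO and Ktn1 at 0.147 and 0.145.

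**Figure D3:**
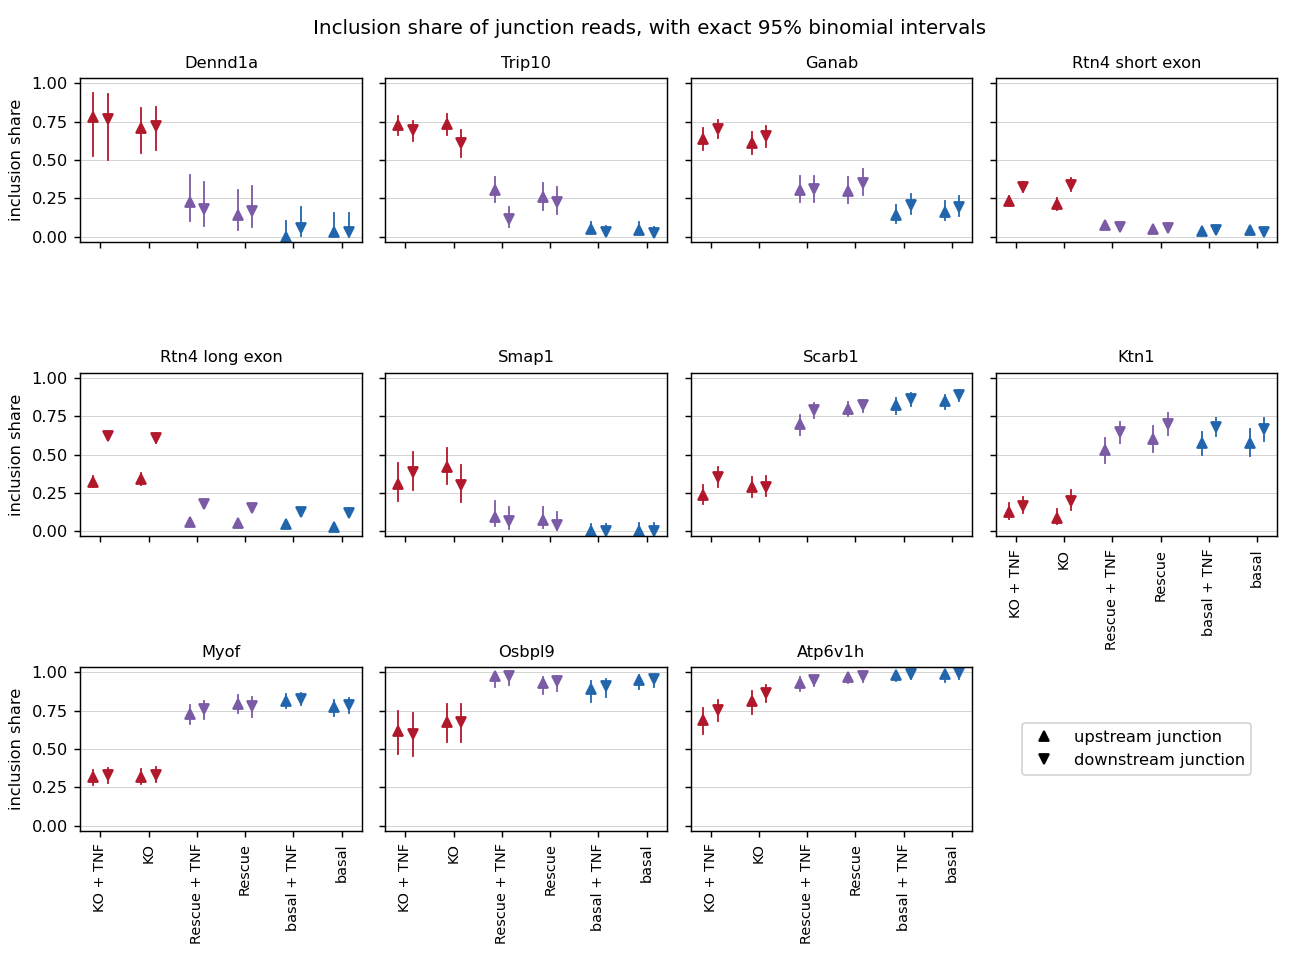
Share of junction reads (vertical axis) that include each exon at its upstream (triangles up) and downstream (triangles down) edge in the 6 libraries, with exact 95% binomial intervals that cover counting error only. The edges lie close for Myof, at 0.316 and 0.328 in KO with TNF, and apart for the long Rtn4 exon, at 0.323 and 0.619.

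The remaining 185 nodes of these genes differed little. For 175 of them the mean psi of the KO libraries was within 0.02 of the mean of the other 4, and 165 had a psi of at least 0.95 in all 6 libraries. Only 5 differed by 0.05 or more, 2 each in Ktn1 and Osbpl9 and 1 in Atp6v1h, up to 0.107 for the 72-nt Ktn1 exon. In Myof all 53 other nodes and in Ganab all 23 were within 0.02.

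The lengths of all 11 exons were multiples of 3. This held for 39.7% of the 78852 cassette nodes tested, for 49.8% of the 3429 with a mean psi of 0.05 to 0.95, and for 74.4% of the 223 cassette nodes apart in other genes. The share was read off the members after their choice and carries no test. Inclusion or skipping of exons of such lengths keeps the downstream reading frame where the exon is coding and holds no stop codon.

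The psi of Rescue lay between 70.1% and 99.3% of the way from KO to basal, taking means over TNF and no TNF. Since a gap places KO outside the range of Rescue as well as basal, a return above 0 follows from how exons and nodes were chosen, and only its size is described. The return was 70.1% for Trip10, 71.2% for Ganab, 78.7% for Dennd1a and 80.7% for Smap1 among the raised exons, and 95.3% and 95.2% for the short and long Rtn4 exons. Among the lowered exons it was 84.7% for Atp6v1h, 86.5% for Scarb1, 90.6% for Myof, 92.1% for Osbpl9 and 99.3% for Ktn1. Over the nodes apart in other genes, the median was 85.2% for the 167 raised (quartiles 76.6% and 101%) and 100% for the 107 lowered (85.1% and 117%), with no test. For Trip10, Ganab and Scarb1 the deposited intervals of Rescue and basal did not overlap in either treatment, with Rescue on the KO side of basal.

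**Figure D4:**
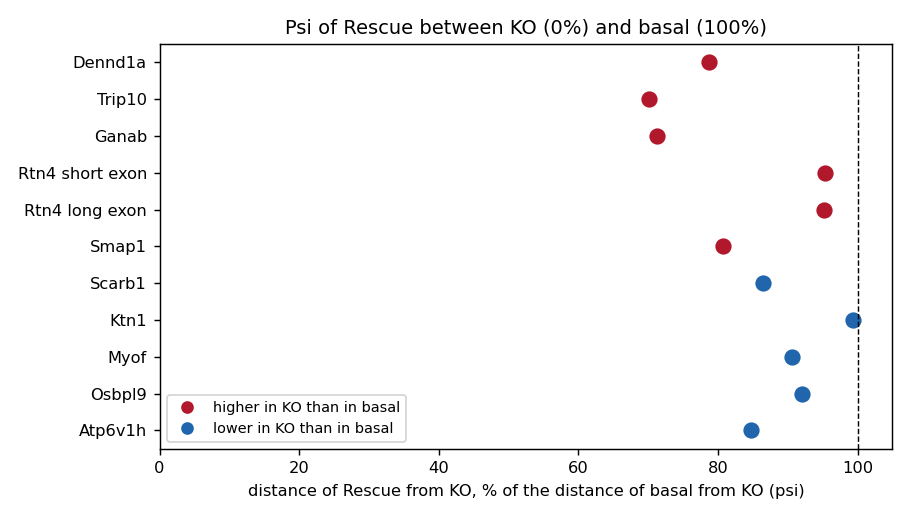
Distance of Rescue from KO as a share of the distance of basal from KO in psi (horizontal axis, %), for the 11 exons (vertical axis), with red for exons higher in KO and blue for exons lower in KO. The dashed line marks full return; Trip10 lay lowest at 70.1% and Ktn1 nearest to it at 99.3%.

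TNF did not play a part in choosing the genes, so its effect was tested, over all nodes with a mean psi of 0.05 to 0.95, on the log2 odds of psi with limma in a model of line and TNF. With 1 library per group, the spread in this test is how unequal the TNF effect was between lines, with 2 residual degrees of freedom. No node of 6064 passed an adjusted p of 0.05 (0%), with 321 at an unadjusted p under 0.05, and 0 passed under every other limma setting run. Of the 22 member nodes tested, 0 had an unadjusted p under 0.05. The largest estimates for the exons above were Dennd1a with 1.04 ± 0.51 (SE, log2 odds, adjusted p = 0.819), Atp6v1h with -0.83 ± 0.32 (adjusted p = 0.819) and Osbpl9 with -0.66 ± 0.34 (adjusted p = 0.819). The 8 others lay between -0.24 for Scarb1 and 0.25 for the long Rtn4 exon. The Dennd1a estimate rests partly on basal without TNF, where psi was 0.0 on 32 reads. It was 0.54 with a prior of 2 reads and 0.43 without either basal library. In psi, its change with TNF was 0.057 in KO, 0.051 in Rescue and 0.057 in basal. A TNF effect on these exons was therefore not detectable here, which does not show that there was none.

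Within single lines, the deposited intervals with and without TNF did not overlap in 4 of 33 pairs of an exon and a line. The Atp6v1h exon was at 0.726 (0.675 to 0.77) in KO with TNF and 0.844 (0.802 to 0.877) in KO without. The Osbpl9 exon was at 0.559 (0.507 to 0.609) in basal with TNF and 0.755 (0.709 to 0.795) in basal without. The short Rtn4 exon was at 0.11 (0.0989 to 0.122) in Rescue with TNF and 0.0811 (0.0682 to 0.0965) in Rescue without. The long one was at 0.104 (0.0936 to 0.115) and 0.0743 (0.0626 to 0.0884) in the same libraries. By junction shares, the exact intervals of these pairs overlapped at both edges for Atp6v1h, Osbpl9 and the long Rtn4 exon. The upstream share of Atp6v1h in KO was 0.689 (0.598 to 0.769) with TNF and 0.811 (0.725 to 0.879) without. That of Osbpl9 in basal was 0.888 (0.803 to 0.945) and 0.946 (0.887 to 0.98). It counts a single skipping junction, with 10 and 6 reads, and leaves out part of the 249 and 272 reads behind psi. The overlap for Osbpl9 therefore decides nothing about its psi difference. For the short Rtn4 exon the intervals overlapped downstream but not upstream, at 0.0792 (0.0674 to 0.0925) and 0.0489 (0.036 to 0.0647) in Rescue. Each of these pairs compares 2 libraries and has no replicate check.

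Gene levels of the members, in CPM scaled by TMM factors, changed with TNF for 2 of 10, against 22% of the 12729 genes tested by edgeR's quasi-likelihood test (11.2% higher). Both were higher. Rtn4 was at 1440 CPM with TNF and 1030 without in KO, 1520 and 804 in Rescue, and 1820 and 1010 in basal, a log2 fold change of 0.75 ± 0.1 (SE, adjusted p = 0.0152). Ktn1 was at 140 and 114 CPM in KO, 145 and 121 in Rescue, and 150 and 117 in basal, 0.31 ± 0.06 (adjusted p = 0.0253). Each was higher with TNF in 3 of 3 lines. Neither call was kept when a basal or a Rescue library was left out: adjusted p ran up to 0.164 for Rtn4 and 0.184 for Ktn1, while over all 6 libraries left out in turn the log2 fold change lay between 0.67 and 0.88 for Rtn4 and between 0.28 and 0.33 for Ktn1. These smaller fits have 1 residual degree of freedom. A line left with 1 library adds no TNF comparison of its own, so leaving out either library of a line is nearly the same check. With the labels' groups, Rtn4 changed by -0.02 and Ktn1 by 0.1 (adjusted p = 0.999 for both).

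The other 8 members did not pass. Atp6v1h was at 54.2 and 48.7 CPM in KO with and without TNF, 70.6 and 61.1 in Rescue, and 63.9 and 43.2 in basal, an estimate of 0.31 ± 0.1 (adjusted p = 0.0809) with all 3 lines in 1 direction. Its adjusted p was 0.0257 without the library named KO with TNF and 0.0425 without the one named KO. Trip10 gave 0.23 ± 0.08 (adjusted p = 0.0885) and Myof 0.21 ± 0.07 (adjusted p = 0.0939), each higher with TNF in 3 of 3 lines. Dennd1a (-0.16), Scarb1 (-0.15), Osbpl9 (-0.08), Smap1 (-0.02) and Ganab (0.0) had adjusted p between 0.221 and 0.995. The median over the 10 was 0.1, beside -0.01 over all genes tested.

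**Figure D5:**
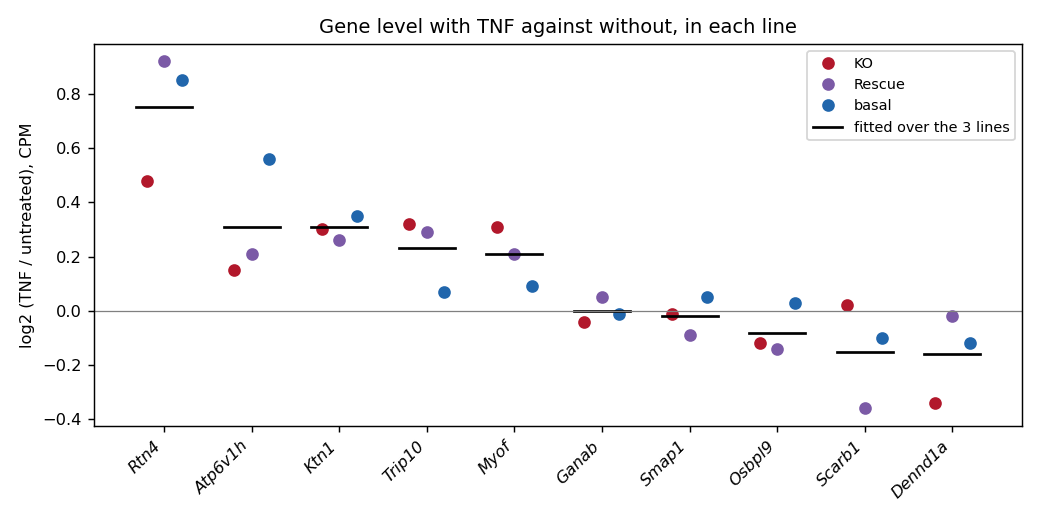
Log2 ratio of CPM with TNF over without (vertical axis) for the 10 genes (horizontal axis), 1 point per line (KO red, Rescue purple, basal blue), and the fitted value over the lines as a bar. Rtn4 ran between 0.48 in KO and 0.92 in Rescue, and the points of Ganab, Smap1, Osbpl9 and Scarb1 fell on both sides of 0.

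The log2 ratio of the members' CPM in KO over basal ran between -0.39 and 0.29 with TNF and between -0.51 and 0.17 without, with medians of -0.08 and 0.02. No member was 2-fold apart. Over all genes, 8.92% of 12535 were 2-fold apart in 1 direction with and without TNF. A count of 0 of 10 members is near that share, so nothing is read from it. Scarb1 had the lowest ratio in both, at 86.8 and 85.4 CPM in KO with and without TNF, 109 and 140 in Rescue, and 113 and 121 in basal. Myof was at 748 and 602 CPM in KO, 476 and 411 in Rescue, and 632 and 594 in basal, and Ganab at 353 and 362 in KO, 263 and 255 in Rescue, and 341 and 343 in basal, so both were lowest in Rescue. In bulk samples, a change in the mix of cells and a change within each cell cannot be told apart.

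Per length, Rtn4 was the most abundant member at 439.51 and 330.81 TPM in KO with and without TNF, 622.07 and 355.8 in Rescue, and 738.13 and 445.85 in basal. Dennd1a was the least abundant, at 13.01 and 17.41 TPM in KO, 19.12 and 20.41 in Rescue, and 15.2 and 18 in basal. For Rtn4, TPM in KO was below basal in both treatments, whereas in CPM KO and basal without TNF were at 1030 and 1010. For 8 members RSEM's transcript set gave the same mean length in every library, so their TPM takes no account of the exons described here.

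Other genes of the same routes were taken from a list of 343, of which 310 had a node with enough reads. At least 1 node was apart in KO in 19 of the 310 (6.13%), against 228 of 9420 over all genes (2.42%). A gene with more nodes has more chances to count. By node, 22 of 3794 were apart in the listed genes, against 284 of 85940 over all genes (0.33%). The counts over all genes include the members. Of the 19, 14 had a node higher in KO and 6 a node lower, with 1 gene in both counts. Clathrin coat and endocytosis genes held 6 of 44 (Ap1m1, Ap2a1, Ap2b1, Bin1, Dnm1 and Picalm), lipid transfer and lipoprotein receptor genes 3 of 23 and ferlins and membrane repair 2 of 12. None of 17 other proton pump genes and none of 18 other genes of endoplasmic reticulum shape and kinesin anchoring had one. The list was written with earlier results of these data known, so nothing is read from its share beside that of all genes. The counts describe the list and were not tested.

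Among those genes the largest gap was in Col4a3bp, the ceramide transporter of the endoplasmic reticulum and Golgi. Its 78-nt exon had a psi of 0.963 and 0.848 in KO with and without TNF, 0.406 and 0.415 in Rescue, and 0.333 and 0.22 in basal. Anxa6, an annexin that binds membranes with calcium, had an 18-nt exon higher in KO, at 0.776 and 0.735 in KO, 0.399 and 0.383 in Rescue, and 0.393 and 0.432 in basal. Dnm1, the dynamin that cuts vesicles off the membrane, had a 12-nt node higher in KO, at 0.746 and 0.682 in KO, 0.411 and 0.311 in Rescue, and 0.088 and 0.168 in basal. Exoc7, a subunit of the exocyst that tethers vesicles, had a 93-nt exon higher in KO, at 0.513 and 0.402 in KO, 0.178 and 0.184 in Rescue, and 0.03 and 0.081 in basal.

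Lower in KO were Osbpl6, a relative of Osbpl9, with a 93-nt exon at 0.152 and 0.155 in KO with and without TNF, 0.613 and 0.391 in Rescue, and 0.665 and 0.558 in basal, and Dennd4c, a Rab activator of the DENN family like Dennd1a. The 147-nt Dennd4c exon was at 0.654 and 0.619 in KO, 0.853 and 0.908 in Rescue, and 0.883 and 0.92 in basal. Picalm, a clathrin assembly protein, had a 24-nt node at 0.351 and 0.223 in KO, 0.548 and 0.644 in Rescue, and 0.733 and 0.719 in basal. Stx2, a SNARE of the cell surface, had a 125-nt node at 0.533 and 0.507 in KO, 0.717 and 0.754 in Rescue, and 0.868 and 0.809 in basal. Of these 8 nodes, the 125-nt one alone is not a multiple of 3 in length.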

How the data were processed

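RNA from 6 libraries of a mouse aortic cell line was sequenced after preparation with a SMARTER mRNA kit, per the labels. Expected counts and TPM values per gene, deposited by the authors, came from RSEM per the submitters' processing notes. For the library named KO they were per transcript and were summed here. The authors also deposited psi as a fraction with the estimated reads behind it, counts of reads per splice junction, and a second set of estimated counts per gene, per the file headers, by a tool not given in the sources used here. Node positions match GENCODE vM21 exons (GRCm38).

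Expected counts were rounded and tested with edgeR 4.0.16 (TMM, filterByExpr, quasi-likelihood; SE is the fold change over the square root of F) in R 4.3.3, and psi with limma 3.58.1 on log2 odds (prior 0.5 reads), with Benjamini-Hochberg adjustment at 0.05. The limit to mean psi of 0.05 to 0.95 was added after the fit on all nodes failed on simulated data, and departs from the planned test. Groups followed file names. Named exons were, per gene, the node with the largest gap and any other apart by 0.1, and of other trafficking genes those with the 8 largest gaps. The genes and lists were chosen with earlier results of these data known. P-values measure unequal responses between lines, not spread between cultures. Intervals cover counting error only. DESeq2 1.42.0, other filters and the labels' groups were alternatives. Columns of unknown samples numbered 0.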

Additional observations from a re-analysis of the deposited data

How the results depend on the processing

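With 10 member nodes apart, a minimum of 50 reads gave 9 of 181, and junction shares at both edges kept 10 of 11. Averaged over both edges, the difference of KO from the other 4 libraries was smaller in junction shares than in psi for 2 exons. It was -0.297 against -0.436 for Osbpl9 and 0.225 against 0.356 for the short Rtn4 exon. For Osbpl9 the share counts a single skipping junction and leaves out reads behind psi, so those sizes are not comparable. Reading the lines from the labels left 0 member nodes apart. Both libraries named KO then fall among the other 4, so a reversed sign follows largely from the choice of exons. With the labels, the mean psi difference of KO from the other 4 libraries was -0.317 for Dennd1a, -0.265 for Trip10, -0.17 for Smap1, -0.199 for Ganab, and -0.191 and -0.188 for the short and long Rtn4 exons, and 0.273 for Scarb1, 0.168 for Osbpl9, 0.104 for Atp6v1h, 0.255 for Myof and 0.268 for Ktn1, each the reverse of the sign by file names. Over all nodes, 284 were apart; a gap of 0.2 left 103, a gap of 0.05 gave 608, a minimum of 50 reads 192 and the labels 26. Of the listed trafficking genes, 19 became 5 with a gap of 0.2 (1.61%, against 0.913% of all genes) and 1 with the labels. Since the list was written with earlier results known, nothing is read from these shares.

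Genes called for TNF numbered 2802 with edgeR and 0 with the labels (491 at an unadjusted p under 0.05). DESeq2 called 2785 and the other settings 2786 to 2989. Leaving out each library gave between 3 and 3744, with 3 without either Rescue library and 903 and 931 without basal with TNF and basal. With the labels the estimates turned for Trip10 (-0.05), Smap1 (0.05), Scarb1 (0.06), Myof (-0.21) and Rtn4 (-0.02) levels and for the Trip10 exon (1.38). The second quantification gave Smap1 0.04 and precision weights gave the Trip10 exon 0.02. Leaving out 1 library moved the Trip10 exon between -0.1 and 0.03, Smap1 exon between -0.2 and 0.19, Myof exon between -0.28 and 0.07, Ktn1 exon between -0.18 and 0.03, Ganab exon between -0.08 and 0.1, the short Rtn4 exon between -0.04 and 0.25, and the Smap1 level between -0.06 and 0.02, none past the threshold. Leaving out KO with or without TNF took the Atp6v1h level past it (adjusted p = 0.0257 and 0.0425). Both of these fits drop the KO line from the TNF comparison, so they are nearly the same check. The cause of the shifts was not tested. The limit on mean psi and the precision weights were chosen after seeing the data. No paired analysis was possible because each group has 1 library, so that replicate numbers pair nothing; the TNF fits already compare libraries within lines through the line term. Dennd1a and Smap1 rest on fewer than 100 reads per library, which limits their precision.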
